A study of Swertia japonica with 2 samples.

Results

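Among the transcripts of Swertia japonica, 88 of 81729 were both abundant in roots and strongly biased to them. This herb, a relative of the gentians, is used medicinally for its bitterness. The transcripts are unigenes, sequences assembled from the reads without a genome, and each carries a number but no gene name in the files used here. A unigene belonged to this set when its length was at least 500 and under 5000 bases, stood at 100 TPM or more in the root library, and had a root TPM at least 8 times its aerial TPM. TPM, the usual unit of such data, is a level per length: read counts are divided by effective length and scaled to a fixed sum per library. Both groups were plants 6 months old grown in a medicinal garden, with no treatment and no strain or genotype given. One group was the roots and the other the aerial tissues, which the labels do not divide into leaf, stem or flower, and each was sequenced as 1 library of poly(A)-selected RNA. How many plants went into each library is not stated in the labels.

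Roots anchor the plant, take up water and minerals, and store and release metabolites, whereas aerial organs carry out photosynthesis. Plants of this family are known for secoiridoid glycosides, bitter compounds built from a monoterpene precursor, and for xanthones, whose ring system joins a benzoate-type unit to units from malonyl-CoA. The series title names the search for genes that make such therapeutic metabolites as the aim. Without gene names no member can be placed in these pathways, and the labelled organs could not be checked against marker genes. The members are therefore ordered by level, by size of the difference, by precision, by relation to one another and by a second root quantification.

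The root library held 4207068 counts and the aerial library 5351257. With 1 library per organ no test across samples was possible, so every difference describes these libraries and carries no p-value. The intervals given with ratios are 95% exact (Clopper-Pearson) intervals from the division of a unigene's reads between the libraries. They cover counting error only. The members were chosen by root TPM and by the ratio of root to aerial TPM, so these values describe the choice and are no finding. In whole organs, fewer cells of a type and less RNA per cell cannot be told apart.

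The 88 members were 7.33% of the 1200 unigenes of the same lengths with at least 100 TPM in roots. Of those 1200, a further 84 were at least 4 times but under 8 times higher in roots, 722 lay within 2-fold, and 10 were at least 8 times higher in aerial tissues. Together the 88 accounted for 5.08% of all TPM in the root library but 0.317% in the aerial one. They drew 185989 root counts and 13694 aerial counts. The same rule turned around found 288 unigenes, 25.1% of the 1149 abundant aerial ones, which accounted for 19.5% of all TPM in the aerial library but 0.744% in the root one. In these libraries the abundant set biased to roots was thus smaller than its aerial counterpart, both in number and in its share of the library. Over the 33089 unigenes with at least 20 counts in total and reads in both libraries, the median log2 ratio of root to aerial TPM was 0.18, a small shift in favour of roots that all ratios below include.

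**Figure D1:**
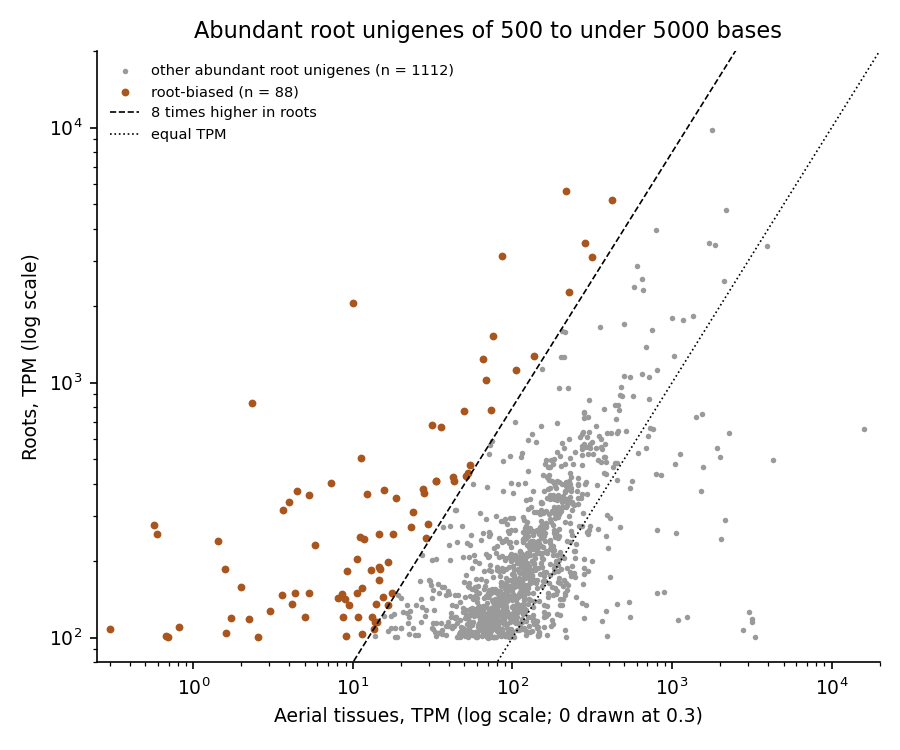
Root TPM against aerial TPM, both on log axes, for the 1200 unigenes of 500 to under 5000 bases with at least 100 TPM in roots, 1 point per unigene. The 88 root-biased unigenes lie on or above the dashed line of 8 times, with aerial levels from 0 to 422 TPM, and 722 of the 1200 lie within 2-fold of equal levels.

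Root levels were uneven within the set. The lowest member stood at 100.5 TPM in roots, the median at 244.6 TPM and the highest at 5638 TPM. At least 1000 TPM was reached by 12 members, which together held 61.2% of the root TPM of all 88. The first 5 alone held 40.5%. Of the 20 most abundant unigenes of the whole root library, 5 were members, and of the first 100, 17 were. Among abundant root unigenes, the members were 7 of the 18 at 2000 TPM or more and 40 of the 700 between 100 and 200 TPM.

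The most abundant member, Unigene47026 (901 bases), reached 5638 TPM in roots against 217 TPM in aerial tissues, from 17944 and 828 counts. Its level was second in the root library and 450th in the aerial one, a ratio of 26.0 (95% exact interval 24.2 to 27.9). Unigene16128 (652 bases) followed with 5180 TPM in roots against 422 TPM in aerial tissues, the highest aerial level of any member. Its ratio was 12.3 (11.5 to 13.1), well under that of Unigene47026. Unigene38033 (877 bases) had 3517 TPM in roots against 286 TPM in aerial tissues, and its ratio of 12.3 (11.6 to 13.1) could not be distinguished from that of Unigene16128 at this depth.

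Unigene41938 (1182 bases) was at a root level similar to that of the next unigene but far lower in aerial tissues. It had 3140 TPM in roots against 85.5 TPM in aerial tissues, from 13885 and 453 counts. Unigene40113 (722 bases) had 3117 TPM in roots against 314 TPM in aerial tissues. The ratios were 36.7 (33.4 to 40.4) for Unigene41938 and 9.94 (9.27 to 10.7) for Unigene40113, and these intervals do not overlap. Unigene50206 (571 bases) closed the leading 6 with 2272 TPM in roots against 225 TPM in aerial tissues, a ratio of 10.1 (9.18 to 11.2).

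A strong bias to roots did not mean absence from aerial tissues. The aerial level of the members ran from 0 to 422 TPM with a median of 13.2 TPM, and 82 of 88 reached 1 TPM. At least 100 TPM in aerial tissues was found for 7 members. These 7 all stood at 1119 TPM or more in roots, with ratios between 9.27 and 26.0. A high root level was required of them, since the rule asks for at least 8 times the aerial level. At the other end, 33 members were under 10 TPM in aerial tissues and 6 under 1 TPM. By aerial TPM the median member ranked about 10596th of the 81729 unigenes, against 431st by root TPM.

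**Figure D2:**
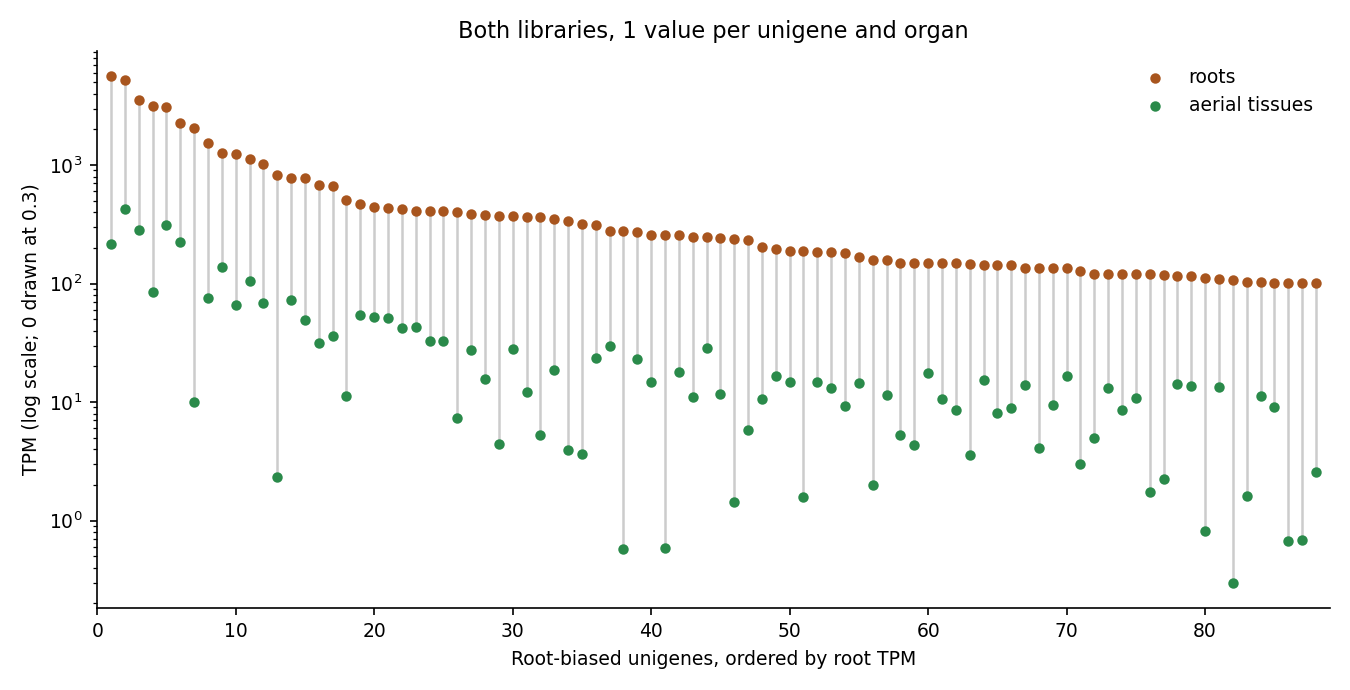
TPM of each of the 88 root-biased unigenes in roots (brown) and aerial tissues (green) on a log axis, ordered by root TPM, with a grey line joining the 2 values of a unigene. Root levels fall from 5638 to 100.5 TPM, while aerial levels scatter between 0 and 422 TPM and reach 100 TPM for 7 members, all of them among those above 1000 TPM in roots.

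The ratio of root to aerial TPM, for the 87 members with at least 1 aerial count, had a median of 15.8 and reached 485. A ratio of 16 or more was found for 44 members, counting the one with no aerial read, and of 32 or more for 27. Across these 87 unigenes the ratio showed almost no relation with the root level (Spearman's rho = -0.04) and a weak one with length (rho = -0.18). Both are descriptions over unigenes that share the same 2 libraries. The rule limited both the ratio and the root level, so the first cannot show whether bias goes with level. The 44 more abundant members had a median ratio of 15.3 and the 44 less abundant ones 17.4.

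Judged by the near end of the interval, which weighs the size of a difference by its read support, the most extreme members were sparse in aerial tissues. Unigene42163 (666 bases) had 833 TPM in roots against 2.33 TPM in aerial tissues, from 1787 and 6 counts. Its ratio was 357 (164 to 973). Unigene20578 (893 bases) was the only one of the leading 6 by this measure with more than 10 aerial reads, 38, against 6482 root reads. Its levels were 2059 TPM in roots against 10.1 TPM in aerial tissues, and its ratio of 204 had the narrower interval of 149 to 289.

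Unigene55749 (826 bases) had 256 TPM in roots from 730 counts and 0.59 TPM in aerial tissues from 2 counts. Its ratio of 437 carried an interval from 121 to 3616. Unigene42161 (510 bases) had 278 TPM in roots against 0.57 TPM in aerial tissues, from 405 and 1 counts, which gave the highest ratio of the set, 485, with an interval from 86.6 to 19204. The order of these leading ratios could therefore not be resolved at this depth.

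Unigene51144 (1561 bases) was the longest of these, with 101 TPM in roots against 0.69 TPM in aerial tissues. With 616 and 5 counts its ratio was 148 (62.9 to 456). Unigene42162 (577 bases) had 239 TPM in roots against 1.43 TPM in aerial tissues from 420 and 3 counts. Its ratio was 168 (57.0 to 816). One member, Unigene52141 (537 bases), had no aerial read. It had 170 root counts, or 108 TPM, and was at least 67.9-fold higher in roots with aerial tissues set to a floor of 3 counts. The exact interval used for the other members starts lower for it, at 54.6. Its root level also rests on the library file, where it is 113 FPKM, since the series table described below gives it 4.24 FPKM.

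Precision differed widely between members because the aerial counts did. Root counts ran from 170 to 17944, with a median of 861, whereas aerial counts had a median of 63 and were under 10 for 14 members. The half-width of the interval, taken as the factor above and below its centre, had a median of 1.30-fold and reached 14.9-fold. The whole interval lay at 8 or above for 74 of the 88 members and reached below 8 for 14. Of the 17 members with a ratio of at least 64 or no aerial read, 12 had fewer than 10 aerial counts.

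**Figure D3:**
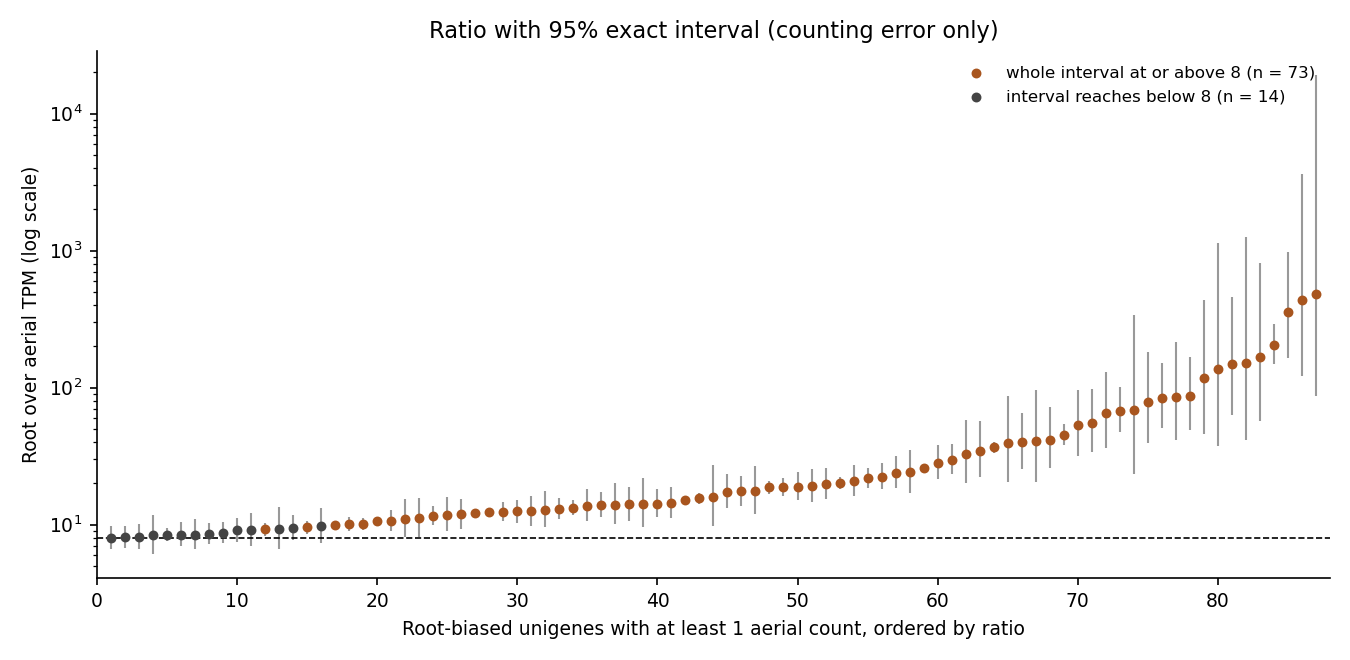
Ratio of root to aerial TPM on a log axis for the 87 root-biased unigenes with at least 1 aerial count, ordered by ratio, with vertical lines for 95% exact intervals (counting error only) and a dashed line at 8. Intervals widen towards the right, where aerial counts are few, and 14 intervals towards the left reach below 8.

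The limits of the set cut through a continuous range. Just inside the limit on the ratio were Unigene25006, with 108 TPM in roots against 13.5 TPM in aerial tissues, and Unigene12514, with 134 and 16.6 TPM. Just outside were Unigene19041, with 589 TPM in roots against 74.2 TPM in aerial tissues, and Unigene52006, with 569 and 72.0 TPM. Those ratios ran from 7.90 to 8.10, and 9 members had a ratio under 9 while 16 abundant root unigenes lay between 7 and 8. The root level of Unigene12514 rests on the library file (141 FPKM), since the series table described below gives it 5.03 FPKM. Unigene25006 had 114 FPKM in both. At the limit on root level, Unigene15698 (100.5 TPM) and Unigene51144 (101 TPM) were inside, and Unigene47969 (97.3 TPM) and Unigene6541 (97.2 TPM) outside. A further 70 unigenes of these lengths had at least 8 times the aerial TPM and a root TPM of at least 50 and under 100.

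Members were of moderate length. The shortest, Unigene19767, had 508 bases and the longest, Unigene13767, had 2288, although the limits allowed anything under 5000. The median was 973.5 bases, against 1035 for the other 1112 abundant root unigenes, 1058 for the 491 with at least 100 TPM in both organs and within 2-fold, and 1264 for the 288 biased to aerial tissues. Of the 240 abundant root unigenes from 500 to under 750 bases, 9.58% were members, and of the 101 with 2000 bases or more, 5.94%. Unigene19767 had 119 TPM in roots against 1.73 TPM in aerial tissues, from 173 and 3 counts. Its ratio was 69.1 (23.2 to 338).

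The few long members were abundant ones. The 6 members of 2000 bases or more had a median of 721 TPM in roots, against 154 TPM for the other 95 abundant root unigenes of that length. Of these 6, 5 reached 500 TPM, and 2 of the 6 are forms of 1 assembled gene. Unigene13767 had 509 TPM in roots against 11.2 TPM in aerial tissues, from 4731 and 125 counts. At 45.3 (37.9 to 54.6), its ratio was the highest of the 6.

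The identifiers show which members are related. They take 4 forms: 55 members start with TR and carry gene and isoform numbers, 20 are contigs with Leaf in their name, 12 are scaffolds and 1 starts with C. The leaf-named members included 3 of the 5 most abundant and held 33.8% of the set's root TPM. Leaf-named contigs held a similar 32.7% of the root TPM of the other 1112 abundant root unigenes. By number they were fewer among the members, 22.7% against 33.1% of those others. A name with Leaf thus did not keep a transcript from being root-biased. Among abundant root unigenes, members were 55 of the 693 of the TR form, 20 of the 388 leaf-named contigs and 12 of the 86 scaffolds.

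The 55 members of the TR form came from 48 assembled genes. In 6 genes more than 1 form was a member, which covered 13 unigenes. The labels do not say how reads that match several forms were assigned, so the counts of single forms are uncertain. The gene with the most members was TR13962, all 3 of whose forms, Unigene42161, Unigene42162 and Unigene42163, were described above. Summed over the forms, it stood at 1350 TPM in roots against 4.33 TPM in aerial tissues, from 2612 and 10 counts.

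TR22963 had a higher level in both organs. Unigene48090 stood at 773 TPM in roots against 49.6 TPM in aerial tissues, and Unigene48091 at 669 and 35.8 TPM. Their ratios were 15.6 and 18.7, and both forms exceed 2000 bases. TR3851 sat near the limit: Unigene68150 had 473 TPM in roots against 54.5 TPM in aerial tissues, and Unigene68149 had 432 and 51.1 TPM, with ratios of 8.68 and 8.46. Under the number TR27077, assembled genes 3 and 4 gave 1 member each. These were Unigene52141, which had no aerial read, and Unigene52142, with 339 TPM in roots against 3.96 TPM in aerial tissues.

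Forms outside the set were mostly higher in roots as well. In 9 of the 48 genes there were 18 further forms, all with at least 20 counts in total. Of these 18, 13 were at least 4 times higher in roots, where 5.87% of all unigenes with that many counts were. At least 8 times was reached by 7 of the 18, against 2.80% of all. Those 7 missed the set by level or length, 3 of them with under 500 bases. The series table described below gives 0 FPKM in roots for Unigene50207 and Unigene49526, against 180 and 56.6 FPKM in the library file. It gives 11.0 FPKM against 47.24 for Unigene59929 and 3.2 against 21.55 for Unigene60691. Unigene49524 (72.0 against 86.1 FPKM) and Unigene63532 (35.1 against 38.7 FPKM) were similar in both, and Unigene59934 was higher in the table (147 against 101 FPKM). Forms of 1 gene share sequence and possibly reads, so they are not independent of the members.

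In TR29753 the forms went opposite ways; this gene and the next were singled out after their values were seen. Unigene55749, the member, had 256 TPM in roots against 0.59 TPM in aerial tissues. Unigene55750 (726 bases) had 32.4 TPM in roots against 322 TPM in aerial tissues, from 78 and 931 counts. The ratio of root to aerial TPM was 437 (121 to 3616) for the first and 0.10 (0.079 to 0.127) for the second, so the leading form of this gene differed between the organs. The third form, Unigene55751 (515 bases), had 92.5 TPM in roots against 23.1 TPM in aerial tissues. Its root level rests on the library file (97.0 FPKM), since the series table gives it 0 FPKM.

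TR32458 combined a biased form with a balanced one. Unigene62404 (1754 bases) had 248 TPM in roots against 11.1 TPM in aerial tissues, from 1721 and 92 counts. Unigene62405 (1773 bases) had 133 and 102 TPM, from 934 and 859 counts. The ratios were 22.4 (18.2 to 27.9) and 1.30 (1.19 to 1.43). Of the 18 further forms, Unigene55750 was the only one higher in aerial tissues and Unigene62405 the only one within 2-fold.

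**Figure D4:**
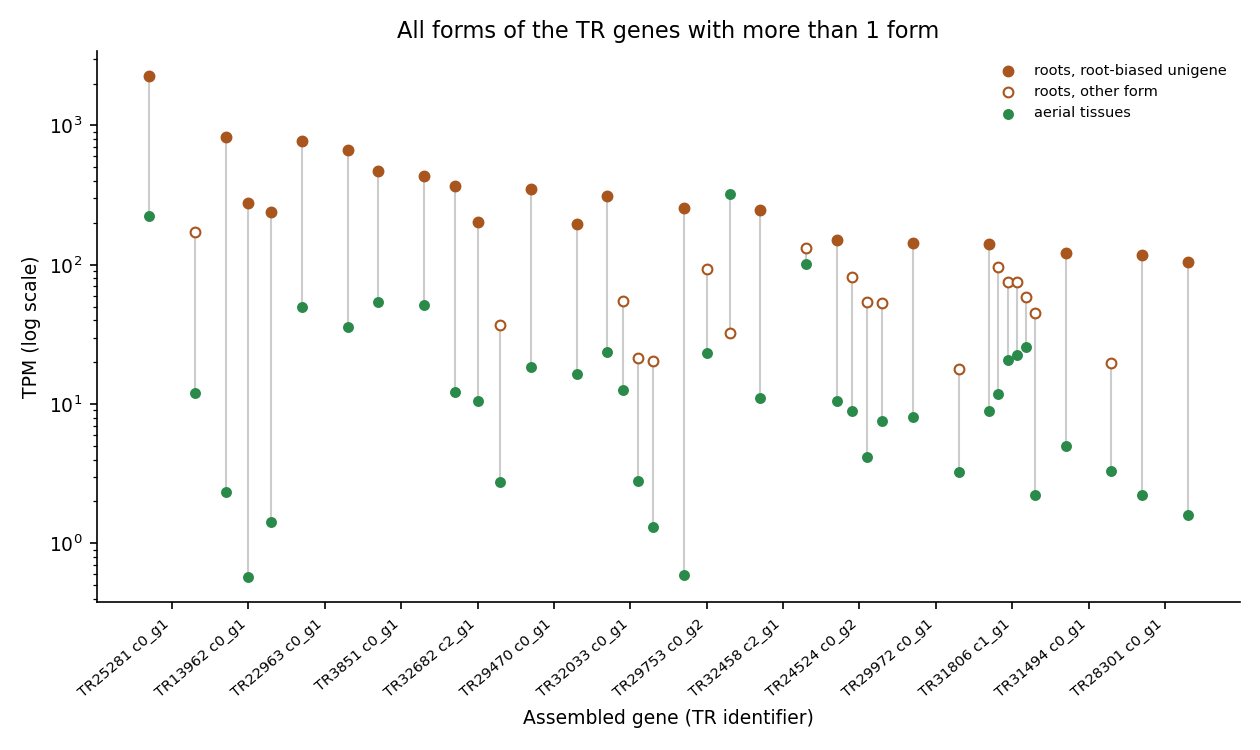
TPM on a log axis of every form of the 14 assembled TR genes that hold a root-biased unigene and have more than 1 form, with 1 joined pair of points per form: filled brown for the root level of a root-biased unigene, open brown for the root level of another form, and green for the aerial level. In TR29753 c0_g2 one form has its green point at 322 TPM, above its root point at 32.4 TPM, whereas the other forms have the root point on top.

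Some scaffolds of the set carried consecutive numbers, a pattern noticed after the values were seen. How often abundant root scaffolds outside the set do so was not counted. Of the 12 member scaffolds among 3836 in all, 7 belonged to runs: 733 to 735, 872 to 873 and 3786 to 3787. The labels do not say what the numbers stand for. Scaffold 733 (Unigene11819, 1168 bases) had 681 TPM in roots against 31.2 TPM in aerial tissues. Scaffold 734 (Unigene11823, 1206 bases) had 157 and 11.4 TPM, and scaffold 735 (Unigene11829, 1148 bases) had 103 and 11.3 TPM. The 3 are close in length but fall from a ratio of 21.8 (18.6 to 25.7) to one of 9.13 (6.93 to 12.2). This fall rests on the library file, where scaffolds 733, 734 and 735 have 714, 165 and 108 FPKM in roots. The series table described below gives them 0, 182 and 0 FPKM.

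The other runs were biased to roots as well in the library files. Scaffold 872 (Unigene11939) had 150 TPM in roots against 4.33 TPM in aerial tissues, and scaffold 873 (Unigene11940) had 244 and 11.8 TPM. Scaffold 3786 (Unigene9952) had 1239 TPM in roots against 65.5 TPM in aerial tissues, and scaffold 3787 (Unigene9953) had 384 and 27.5 TPM. The series table described below gives scaffolds 3786 and 3787 only 19.4 and 0 FPKM in roots, against 1299 and 403 FPKM in the library file. For scaffolds 872 and 873 it gives 119 and 210 FPKM, against 157 and 256 FPKM. Of the 11 scaffolds next in number to a member but outside the set, 6 had at least 20 counts, and 0 of these 6 were 4 times higher in roots. Among those with fewer counts, scaffold 3785 (Unigene9951), beside 3786, had 15 root counts and 2 aerial counts, a ratio of 8.98 (2.09 to 80.9). Scaffold 871, beside 872, had 10.5 TPM in roots against 9.15 TPM in aerial tissues.

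The series table gives a second FPKM value for the root sample, which the rule did not use. FPKM is likewise a level per length, scaled to the number of counted fragments. The labels do not say how the table was made, and as a second quantification of the same sample it is no replicate. For the 88 members the median ratio of table to library file was 1.04, and 60 of 88 agreed within 1.5-fold. The 28 others were 31.8% of the members, where 23.5% of all 1200 abundant root unigenes differed that much. The table was at least 1.5 times lower for 18 members (20.5%; 13.9% of the 1200) and higher for 10 (11.4%; 9.58% of the 1200). Across the members the file and table values had a Spearman's rho of 0.74, a description over unigenes of 1 sample.

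Most of the leading members held their level in both quantifications. Unigene47026 was at 5910 FPKM in the file and 5465 FPKM in the table, Unigene41938 at 3292 and 3241 FPKM, and Unigene13767 at 533 and 533 FPKM. Of the 12 members with at least 1000 TPM, 11 were also at 1000 FPKM or more in the table. The exception was Unigene9952, scaffold 3786, with 1299 FPKM in the file and 19.4 FPKM in the table. The members with the highest table values relative to the file were Unigene48598, at 612 against 293 FPKM, and Unigene50441, at 826 against 431 FPKM.

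The strongest disagreements lay among the scaffolds. Of the 12 members at least 10 times lower in the table than in the file, 7 were scaffolds, 4 were of the TR form and 1 was a leaf-named contig. A value of 0 in the table was given to 5 members (5.68%; 4.33% of the 1200), and all 5 were scaffolds. Unigene11819 had 714 FPKM in the file from 2969 counts, Unigene9953 had 403 FPKM, Unigene9253 had 388 FPKM, Unigene9472 had 196 FPKM and Unigene11829 had 108 FPKM. Of the 12 scaffold members, 8 were at least 1.5 times lower in the table. This was shared by scaffolds outside the set, since 53 of the other 74 abundant root scaffolds (71.6%) also differed by that much and 25 were listed at 0. Without scaffolds, 0 of the remaining 76 members were at 0 in the table and 10 were at least 1.5 times lower. Outside the set zeros were not confined to scaffolds. Among the other abundant root unigenes, 15 of the TR form, 5 leaf-named contigs and 2 of the C form were at 0.

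In 3 of the 6 genes with several member forms, the table divided the level between the forms differently. Those genes, TR13962, TR32682 and TR28301, held all 7 forms, of 13 in the 6 genes, that differed by at least 1.5-fold, with ratios of table to file from 0.020 to 1.74. In TR22963, TR3851 and TR29470 each form differed by less. Summed over the member forms, the ratio lay between 1.00 and 1.27 in the 6 genes; a sum always lies between its forms, so this range is a description. In TR13962, Unigene42163 had 873 FPKM in the file and 1516 in the table, Unigene42161 had 291 and 76.5 FPKM, and Unigene42162 had 251 and 7.64 FPKM. The sum was 1415 FPKM in the file and 1600 in the table. In TR32682, Unigene63533 had 383 FPKM in the file and 599 in the table and Unigene63534 had 212 and 4.31 FPKM, with sums of 596 and 603 FPKM. In TR28301, Unigene53597 had 124 FPKM in the file and 193 in the table and Unigene53596 had 109 and 41.2 FPKM, with sums of 233 and 234 FPKM.

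**Figure D5:**
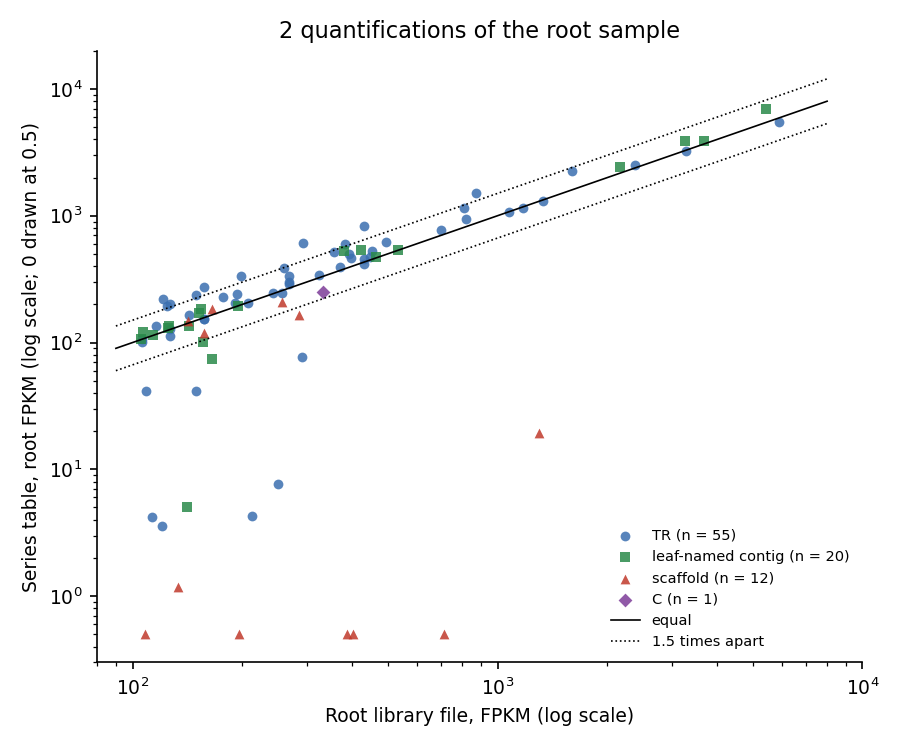
Root FPKM in the series table against root FPKM in the root library file, both on log axes, for the 88 root-biased unigenes, with colour and marker for the form of the identifier, a solid line for equality and dotted lines for 1.5 times. The 5 points drawn at the bottom edge, listed at 0 in the table, are scaffolds, and 60 of 88 points lie between the dotted lines.

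Applying the limits to both root quantifications kept 69 of the 88 members. By the table's root values alone, 101 unigenes met the limits, and 69 of these were members. For this the table was rescaled to the sum of the TPM, and its root values were set against aerial values from a separately normalised file. The 19 that dropped out include the 5 scaffolds at 0 and Unigene9952, Unigene42161, Unigene42162, Unigene63534 and Unigene52141. Of the 6 most abundant members and the 6 with the largest near end of the interval, Unigene42161 and Unigene42162 dropped out.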

How the data were processed

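RNA of roots and of aerial tissues was sequenced from strand-specific libraries, 1 per organ, per the labels' protocols. The submitters' processing notes name Trimmomatic, a read trimmer, and RSEM, which estimates transcript abundance; versions, assembler and aligner are not given there. The deposited expected counts carry no normalisation and hold whole numbers throughout. The authors' TPM values, as deposited, are per effective length and scaled to a fixed sum per library. The FPKM values deposited by the authors are per effective length and number of counted reads, and a series table holds a second set of them. From this table the root column was used, since its name fits the root sample. Another column, 1 in number and named for leaf, matches no sample label and was left out.

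Members were joined on transcript identifier and named by unigene number. Ratios were computed from counts on the TPM scale, with 95% exact intervals. No set of genes was fixed by function, because the files pair unigenes with no gene names. Members, rule and tests were chosen with earlier results of these data known. Named unigenes are the 6 highest by root TPM and the 6 by near end of the interval, those with no aerial read, the 3 TR genes with most members (ties by root TPM), the neighbours of each limit, the extremes of table over file, and the longest and shortest; the other unigenes named, including forms, scaffold runs and examples of steady values, were chosen after their values were seen. The rule was tested on simulated data. Alternatives used edgeR 4.0.16 (TMM factors) and DESeq2 1.42.0 (size factors), both over the 33536 unigenes that had at least 20 counts, in R 4.3.3; the rest used Python 3.11.15, numpy 2.4.6, scipy 1.17.1, pandas 2.3.3 and matplotlib 3.10.9.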

Additional observations from a re-analysis of the deposited data

How the results depend on the processing

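Of 51 alternatives to the number of members, their share of the root TPM, their percentage among abundant root unigenes, the number of genes with several member forms and the median of table over file, 29 left a count within a factor of 1.5, or a share or median inside its interval, and 22 did not. Folds of 4 and 16 gave 172 and 44 members, 9.80% and 2.37% of the root TPM, and 14.3% and 3.67% of abundant root unigenes; at 16, 3 genes kept several member forms. Root minimums of 50 and 200 TPM gave 158 and 48 members, 5.57% and 4.53% of the root TPM, and at 200 TPM 9.60% of abundant root unigenes. These limits change the counts by construction. The share of the root TPM, 5.08% under the rule, shifted by more than its limit in each remaining setting. That limit is narrow and comes from counts rather than TPM, so a shift past it says little. The share was 7.10% without length limits, 5.40% with CPM and a floor of 3 counts, 4.84% with TMM and 4.86% with DESeq2. It was 4.85% with the near end of the interval at 8, and 5.38% and 5.40% with pseudocounts of 1 and 0.1 on FPKM. Summing over TR genes gave 5.20%, the table's root values 6.51%, and limits met in both root quantifications 4.57%. That last setting was chosen after seeing the data, as was leaving out scaffolds. TMM brought the median log2 ratio of all unigenes to -0.01 and kept 77 of the 88 members; DESeq2 kept 79, and the lowest ratio of any member was 7.02 with TMM. At this depth the intervals of 14 members reached below 8, and differences between plants were not measured. No paired analysis was possible because each organ had 1 library.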
